A study of Homo sapiens with 9 samples.

Results

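IL6 and 9 other genes of secreted inflammatory signals were followed across 9 RNA sequencing libraries. The labels call the cells HepG2, an established line from a human liver tumour. The 10 genes are IL6, LIF, IL32, IL1A, IL1B, CCL2, CXCL1, CXCL2, CXCL3 and CXCL8. They were listed by name and chosen by earlier values from these same libraries, the fold changes of IL6, IL32 and CCL2 after curcumin, together with related genes. Each symbol had 1 row among the 62703 genes of the deposited table, so all 10 were found. Levels are in TPM, a share of all transcripts in a library that is scaled for gene length and can be compared between genes.

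All 9 libraries came from cells given 750 µM palmitic acid (PA), a saturated fatty acid, for 24 h. In 3 libraries this was followed by 12 h with 20 µM curcumin, the yellow polyphenol of turmeric, and 5 µM CuCl2. In 3 libraries they had 20 µM curcumin for 12 h, and in 3 they had palmitic acid alone. The labels describe no untreated cells, no vehicle control and no CuCl2 without curcumin. No further 12 h are described for palmitic acid alone, so curcumin and those 12 h cannot be told apart. The labels do not say that replicates were separate cultures, and the spread may be technical.

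IL6 is a cytokine that signals through its receptor and the shared subunit gp130 to the transcription factor STAT3, and in liver it drives the acute phase response. LIF belongs to the same cytokine family and also signals through gp130. IL1A and IL1B encode the IL-1 cytokines, and IL32 encodes a cytokine found in humans and absent from rodents. CCL2 attracts monocytes, while CXCL1, CXCL2, CXCL3 and CXCL8 attract neutrophils. NF-kB, AP-1 and C/EBP factors are known regulators of many of these genes, and their transcripts are often short-lived.

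The label was checked against cell type markers. All 22 hepatocyte markers examined had a mean under 1 TPM, and 8 of them, among them the albumin gene ALB and the genes TTR, APOB and APOA2 of further proteins that the liver secretes, were listed at 0 in every library. HepG2 cells are known to express ALB and AFP, and AFP averaged 0.643 TPM. EPCAM, an epithelial surface gene, averaged 0.0044 TPM, while the keratin gene KRT7 averaged 1216 TPM. These values go against the HepG2 label, so the libraries are called here by their treatments. The hepatocyte markers summed to 1.03 to 1.92 TPM with curcumin and CuCl2, 0.97 to 2.61 TPM with curcumin and 0.90 to 1.42 TPM with palmitic acid alone. Of 12 leukocyte and Kupffer cell markers, 9 were under 1 TPM, with summed levels of 9.53 to 10.6, 9.78 to 12.0 and 9.68 to 12.9 TPM in the same order of groups. Among those 9, PTPRC, the pan-leukocyte marker CD45, was at or near 0, with a mean of 0.0056 TPM. CD163 and CD3E, also among them, were listed at 0 throughout. The other 3 of the 12 averaged 1 TPM or more. Summed levels of 10 fibroblast and stellate markers (15.8 to 22.6, 19.5 to 22.9 and 15.8 to 21.5 TPM) and of 9 endothelial markers (0.39 to 0.77, 0.39 to 0.90 and 0.55 to 1.52 TPM) overlapped between groups. Of the 10 fibroblast and stellate markers, 3 averaged 1 TPM or more, and 0 of the 9 endothelial ones did. An epithelial list of 8 genes, carried by KRT7, KRT8 and KRT18, summed to 2637 to 2716 TPM with curcumin and CuCl2, 2506 to 2865 TPM with curcumin and 3316 to 3813 TPM with palmitic acid alone. That list was lower in all 6 curcumin libraries than in the other 3, and its part in the results below was not tested. Mitochondrial genes held 10.7% to 11.8%, 10.4% to 12.4% and 10.1% to 12.98% of the TPM in those groups.

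The stretch just before the RefSeq start site is shown for the 6 genes of the set in which it held the letters GGANTTTCC, a core of many NF-kB sites. Each line has the 100 bases before the start, 5′ to 3′ on the gene's strand, with the match in capitals (RefSeq, GRCh38.p14).
IL6 (chr7:22727100-22727199, plus strand): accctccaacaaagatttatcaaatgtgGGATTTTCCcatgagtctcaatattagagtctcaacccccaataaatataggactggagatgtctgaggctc
IL32 (chr16:3065303-3065402, plus strand): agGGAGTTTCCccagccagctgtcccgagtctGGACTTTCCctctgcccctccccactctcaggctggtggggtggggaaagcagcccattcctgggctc
CXCL8 (chr4:73740469-73740568, plus strand): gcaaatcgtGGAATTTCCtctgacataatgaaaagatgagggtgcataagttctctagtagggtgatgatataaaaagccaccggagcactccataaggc
CXCL1 (chr4:73869293-73869392, plus strand): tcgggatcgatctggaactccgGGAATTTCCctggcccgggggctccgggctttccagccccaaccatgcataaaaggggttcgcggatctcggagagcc
CXCL2 (chr4:74099196-74099295, minus strand): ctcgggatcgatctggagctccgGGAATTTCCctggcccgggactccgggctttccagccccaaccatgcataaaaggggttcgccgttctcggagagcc
CXCL3 (chr4:74038690-74038789, minus strand): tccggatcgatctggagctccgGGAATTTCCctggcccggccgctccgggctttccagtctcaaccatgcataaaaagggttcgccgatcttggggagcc

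Promoter sequence was found for 8 of the 10 genes, in 10 windows of 250 bases before a start, since IL32 and IL1A have 2 each. The 6 genes above had GGANTTTCC in 1 window each, IL32 with 2 matches, and IL1A and IL1B had none. Of 35116 human windows of the same length, 1.45% held it on either strand. That share is of windows, while the matches above are counted by gene. The letters were chosen as those of NF-kB sites in cytokine promoters, so matches in these genes were likely in advance and test nothing. The stretches of CXCL1, CXCL2 and CXCL3 shown above are also much alike, so their matches are not independent. The AP-1 letters TGANTCA were found for IL1A and CXCL8 and in 6.57% of all windows. The C/EBP letters TTGCNNAA were found for IL6, CXCL2 and IL1B and in 9.05% of all windows. TGACNNNGC, an antioxidant response element core, was found for IL1A and in the second window of IL32, against 10.9% of all windows. These are matches of letters and not measured binding.

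In the GENCODE release 29 annotation of GRCh38, IL6 occupies 22725884 to 22732002 of chromosome 7 (plus strand). IL32 lies on chromosome 16 at 3065297 to 3082192, LIF on chromosome 22 at 30240447 to 30246851 and CCL2 on chromosome 17 at 34255218 to 34257203. IL1A (112773915 to 112784590) and IL1B (112829751 to 112836903) neighbour each other on chromosome 2. The 4 CXC chemokine genes lie in a cluster on chromosome 4 between 73740506 and 74099293. Antisense or opposite-strand genes overlap IL6, IL32 and LIF, all with group means under 1 TPM, and whether the authors counted by strand is not given in the sources used here.

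IL6 and IL32 were both lower in every curcumin library than in any library with palmitic acid alone, at close to the same proportion. IL6 stood at 43.2% of its palmitic acid level with curcumin and CuCl2 and at 41.1% with curcumin. IL32 stood at 43.8% and 41.4%. CCL2 was near 50% in both groups without passing the test, and CXCL2 kept 85.4% and 91.5%. With curcumin and CuCl2, none of the 8 genes tested passed against curcumin. In these bulk samples, fewer producing cells and less RNA per cell cannot be told apart.

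**Figure D1:**
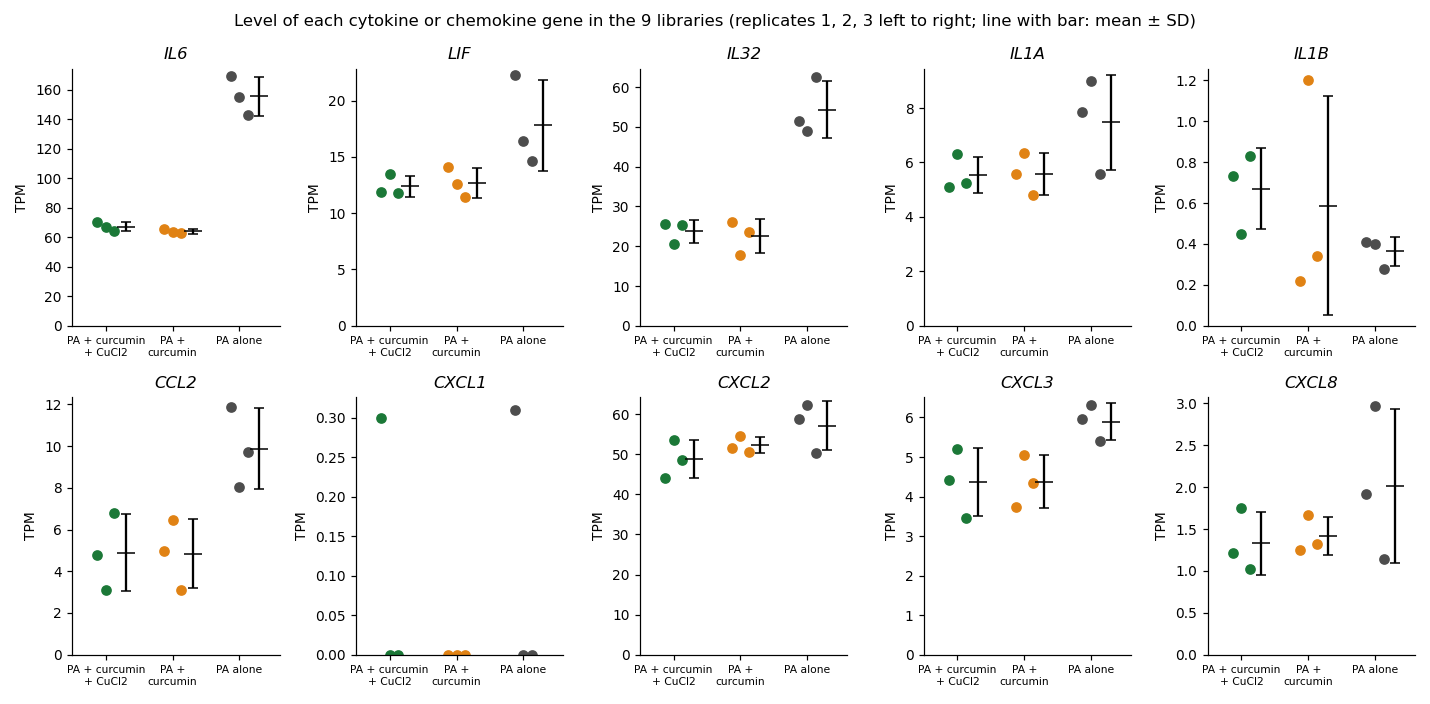
TPM (y axis, from 0 in each panel) of the 10 genes in each library; points are replicates 1 to 3 of a treatment from left to right, and the line with its bar is the mean ± SD of 3 libraries, left out for CXCL1. IL6 lies between 62.6 and 70.5 TPM in the 6 curcumin libraries and between 143 and 169 TPM with palmitic acid alone, while the CXCL2 points of the groups overlap.

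IL6 had 70.5, 66.8 and 64.3 TPM in the 3 libraries with curcumin and CuCl2, 65.8, 63.6 and 62.6 TPM with curcumin, and 169, 155 and 143 TPM with palmitic acid alone. The curcumin groups overlapped each other and lay far below palmitic acid alone. Their means were 67.2 ± 3.13, 64.0 ± 1.64 and 155.5 ± 13.1 TPM (SD, n = 3 each). Fold changes were taken on log2(TPM + 1), where changes of low genes come out too small. On it IL6 fell by 1.20 with curcumin and CuCl2 (SE 0.08) and by 1.27 with curcumin (SE 0.08). In rank among all 62703 genes, IL6 was between 2002 and 2194 with curcumin and CuCl2, between 2135 and 2304 with curcumin, and between 901 and 1031 with palmitic acid alone. The relative within-group spread of IL6 was the smallest with curcumin and the largest with palmitic acid alone.

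LIF, the other gp130 cytokine of the set, had 11.8, 13.5 and 11.8 TPM with curcumin and CuCl2, 14.1, 12.6 and 11.4 TPM with curcumin, and 22.3, 16.4 and 14.6 TPM with palmitic acid alone. The curcumin groups overlapped each other and not palmitic acid alone, but replicate 3 of palmitic acid alone was within 1 TPM of the highest curcumin library. Its log2 fold change against palmitic acid alone was -0.47 with curcumin and CuCl2 and -0.44 with curcumin (SE 0.15 each), neither past the threshold.

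IL32 had 25.6, 20.5 and 25.4 TPM with curcumin and CuCl2, 26.1, 17.8 and 23.6 TPM with curcumin, and 51.6, 48.9 and 62.4 TPM with palmitic acid alone. The highest curcumin library was well below the lowest with palmitic acid alone. IL32 fell by 1.16 on the log2 scale with curcumin and CuCl2 and by 1.24 with curcumin (SE 0.15 each). With only the libraries of palmitic acid and curcumin in the fit, its estimate stayed at -1.24 and missed the threshold.

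IL1A, whose product acts at membranes and is released by damaged cells, had 5.11, 6.31 and 5.23 TPM with curcumin and CuCl2, 5.58, 6.35 and 4.81 TPM with curcumin, and 7.87, 9.0 and 5.57 TPM with palmitic acid alone. Replicate 3 of palmitic acid alone lay inside the range of the curcumin libraries. Its log2 fold changes were -0.36 and -0.35 (SE 0.17 each). IL1B, made as a precursor that caspase-1 cleaves, had 0.73, 0.45 and 0.83 TPM with curcumin and CuCl2, 0.22, 1.20 and 0.34 TPM with curcumin, and 0.41, 0.40 and 0.28 TPM with palmitic acid alone. All 3 libraries with curcumin and CuCl2 were above those with palmitic acid alone, while curcumin libraries overlapped them. IL1B was under the filter of a mean of 1 TPM and was not tested.

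CCL2 had 4.79, 3.10 and 6.80 TPM with curcumin and CuCl2, 4.97, 6.44 and 3.12 TPM with curcumin, and 11.9, 8.02 and 9.70 TPM with palmitic acid alone. The curcumin groups did not overlap palmitic acid alone, yet their libraries spread more than 2-fold among themselves. The log2 fold change was -0.92 in both comparisons (SE 0.27) and did not pass.

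Among the neutrophil chemokines, CXCL2 was the only one above 10 TPM. It had 44.0, 53.6 and 48.6 TPM with curcumin and CuCl2, 51.6, 54.5 and 50.6 TPM with curcumin, and 58.8, 62.2 and 50.3 TPM with palmitic acid alone. Replicate 3 of palmitic acid alone was lower than all 3 libraries with curcumin and no CuCl2. Its log2 fold changes were -0.22 and -0.12 (SE 0.10 each), with 95% intervals of -0.45 to 0.0015 and -0.35 to 0.10. CXCL3 had 4.43, 5.19 and 3.47 TPM with curcumin and CuCl2, 3.73, 5.06 and 4.33 TPM with curcumin, and 5.97, 6.32 and 5.40 TPM with palmitic acid alone. These groups did not overlap palmitic acid alone, the closest libraries being at 5.19 and 5.40 TPM, and the log2 fold changes of -0.37 and -0.37 (SE 0.16 each) did not pass. CXCL8, which encodes interleukin 8, was close to the filter, with 1.22, 1.75 and 1.02 TPM, 1.25, 1.67 and 1.32 TPM, and 1.92, 2.97 and 1.14 TPM in the same order of groups. CXCL1 was listed at 0.30 and 0.31 TPM in replicate 1 of curcumin with CuCl2 and of palmitic acid alone, and at 0 in the other 7 libraries.

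The low CXCL1 beside the higher CXCL2 has to be read with their sequence in mind. Over 324 coding bases, CXCL1 and CXCL2 were 93.5% identical, CXCL2 and CXCL3 94.4%, and CXCL1 and CXCL3 90.7%. CXCL8 was at most 54.1% identical to any of them. How reads common to the 3 genes were divided is therefore uncertain. Their summed level, which does not depend on that division except through gene length, was 53.2 ± 5.09 TPM with curcumin and CuCl2, 56.6 ± 2.54 TPM with curcumin and 63.1 ± 6.62 TPM with palmitic acid alone (SD, n = 3 each). The 3 ranges overlapped, at 48.8 to 58.8, 54.9 to 59.5 and 55.7 to 68.5 TPM.

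The genes kept nearly the same order of level in every treatment. IL6 was highest, followed by CXCL2, IL32 and LIF, and its libraries did not overlap those of CXCL2 in any group. CXCL2 and IL32 overlapped with palmitic acid alone and were clearly apart in both curcumin groups, where CXCL2 was higher. IL1A, CCL2 and CXCL3 came next. Neighbours among these 3 overlapped, and none of the 3 overlapped LIF above or CXCL8 below. CXCL8, IL1B and CXCL1 were lowest. The 10 genes summed to 168, 171 and 167 TPM with curcumin and CuCl2, 173, 169 and 162 TPM with curcumin, and 329.9, 309 and 292 TPM with palmitic acid alone. IL6 held 39.8% ± 1.83 of that sum with curcumin and CuCl2, 38.0% ± 0.54 with curcumin and 50.05% ± 1.18 with palmitic acid alone (SD, n = 3 each). Without IL6, the sums were 102 ± 3.33, 104 ± 4.22 and 155 ± 5.78 TPM.

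**Figure D2:**
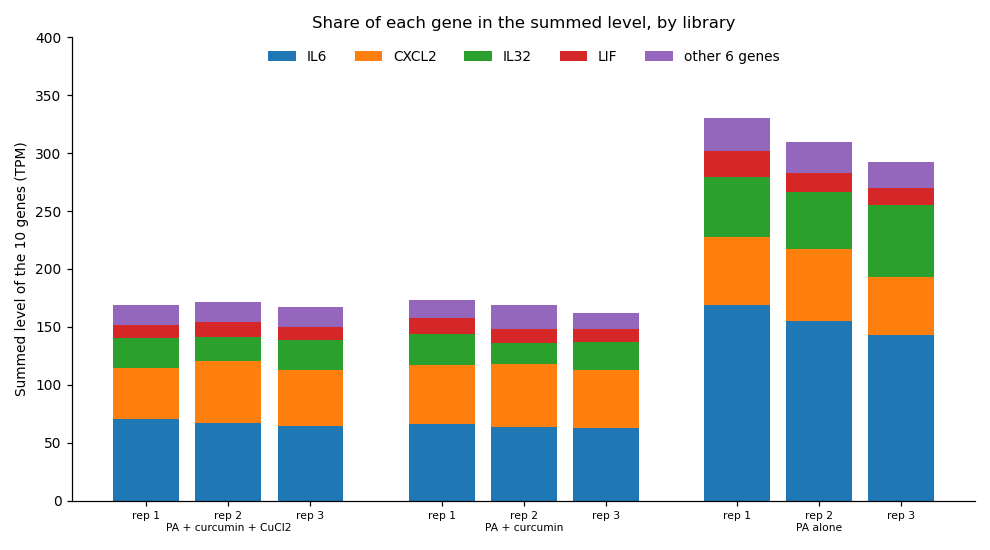
Summed TPM of the 10 genes (y axis, from 0) in each of the 9 libraries, split by colour into IL6, CXCL2, IL32, LIF and the other 6 genes. The 6 curcumin libraries sum to 162 to 173 TPM and those with palmitic acid alone to 292 to 329.9 TPM, with the IL6 and IL32 segments shorter in the curcumin libraries and the CXCL2 segment of like height in all.

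Of the 10 genes, 8 passed the filter on low values and entered the test, which was limma on log2(TPM + 1) across 13443 genes with Benjamini-Hochberg adjustment. With curcumin and CuCl2, 2 of the 8, IL6 and IL32, were past the adjusted threshold of 0.05 and both were lower, where 1.44% of all tested genes were past it, 0.900% as lower. With curcumin IL6 and IL32 were again past it and lower, where 1.96% of all tested genes were past it, 1.21% as lower. At an unadjusted p under 0.05 there were 5 of 8 in each comparison, where 13.5% of tested genes passed with curcumin and CuCl2 and 14.0% with curcumin. Because the genes were listed with those differences known, the counts describe the set and test nothing. In both comparisons 5 of the 8 (IL6, IL32, CCL2, LIF and CXCL3) had libraries that did not overlap palmitic acid alone and were lower, against 10.3% of tested genes with curcumin and CuCl2 and 8.61% with curcumin. None of the 8 was apart and higher, against 8.67% and 8.15% of tested genes. IL1B, left out of the 8 by the filter, was apart and higher with curcumin and CuCl2 and overlapped palmitic acid alone with curcumin. The median log2 fold change over all 10 genes was -0.36 in both comparisons, beside -0.03 with curcumin and CuCl2 and -0.02 with curcumin over all genes tested. Both comparisons share the 3 libraries with palmitic acid alone, so their likeness is not independent.

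**Figure D3:**
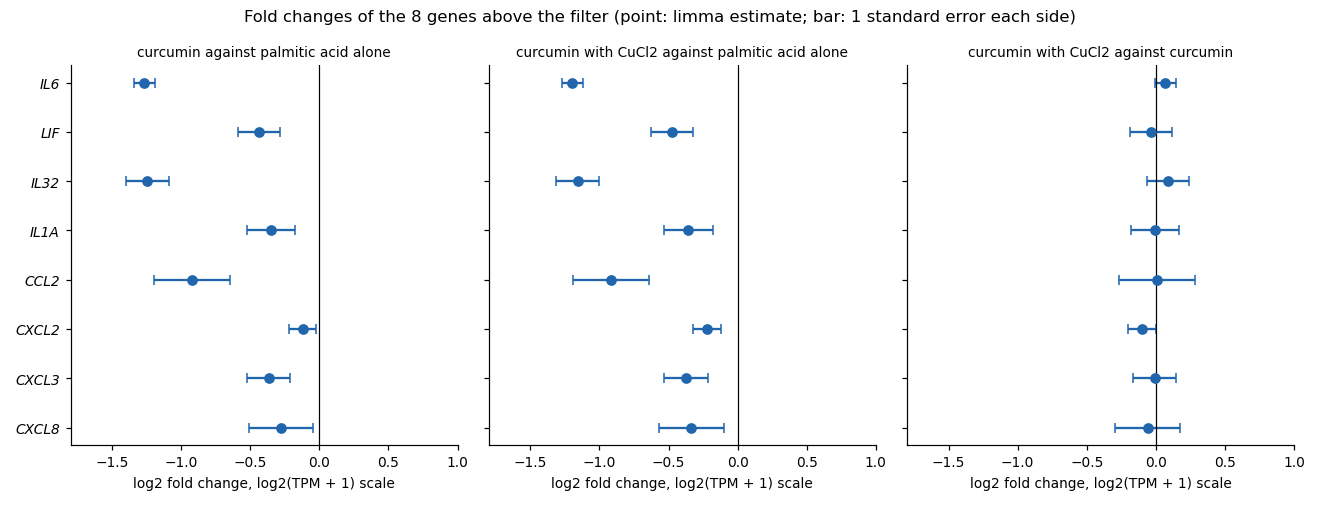
Log2 fold changes of the 8 genes above the filter on the log2(TPM + 1) scale (x axis), one panel per comparison; points are limma estimates and bars 1 standard error each side. IL6 and IL32 lie between -1.27 and -1.16 in the panels against palmitic acid alone, and all 8 lie between -0.10 and 0.09 in the panel of curcumin with CuCl2 against curcumin.

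Adding CuCl2 to curcumin was compared with curcumin to ask whether the copper salt changed these transcripts. None of the 8 passed (limma, Benjamini-Hochberg adjustment), and 0 of 8 had an unadjusted p under 0.05. Across all genes the share past the adjusted threshold was 0%, and 1.60% had an unadjusted p under 0.05. No gene of the 8 had groups that did not overlap, where 3.61% of tested genes were apart and lower and 2.63% apart and higher. Estimates were below 0 for 5 of the 8 and for 54.2% of tested genes. The log2 fold change of IL6 was 0.07 with a 95% interval of -0.10 to 0.24. It was 0.09 for IL32 (-0.26 to 0.43), -0.03 for LIF (-0.38 to 0.31) and -0.10 for CXCL2 (-0.33 to 0.12). The widest interval was that of CCL2, at -0.61 to 0.62 around 0.01. These intervals leave room for differences of the size they span, and the comparison does not show that the treatments act alike.

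The genes with the profile most like IL6 were sought among the 8998 genes that averaged 5 TPM or more, as the smallest root mean square difference of centred log2(TPM + 1) over the 9 libraries. The closest were NEURL1 (0.072), ALPP (0.107), IFIT3 (0.115), CTDSP1 (0.125) and ANKRD1 (0.129), where the median gene was at 0.594. IL32 was at 0.199. NEURL1, which encodes a ubiquitin ligase, had 11.8 ± 0.35 TPM with curcumin and CuCl2, 11.6 ± 0.99 TPM with curcumin and 28.5 ± 3.67 TPM with palmitic acid alone. ALPP, the placental alkaline phosphatase gene, had 155 ± 4.52, 150.2 ± 4.06 and 314 ± 33.8 TPM, and IFIT3, an interferon-induced gene, 32.0 ± 1.45, 32.8 ± 1.70 and 70.6 ± 11.1 TPM (SD, n = 3 each). These genes were chosen for their profile, so their levels are a description only.

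**Figure D4:**
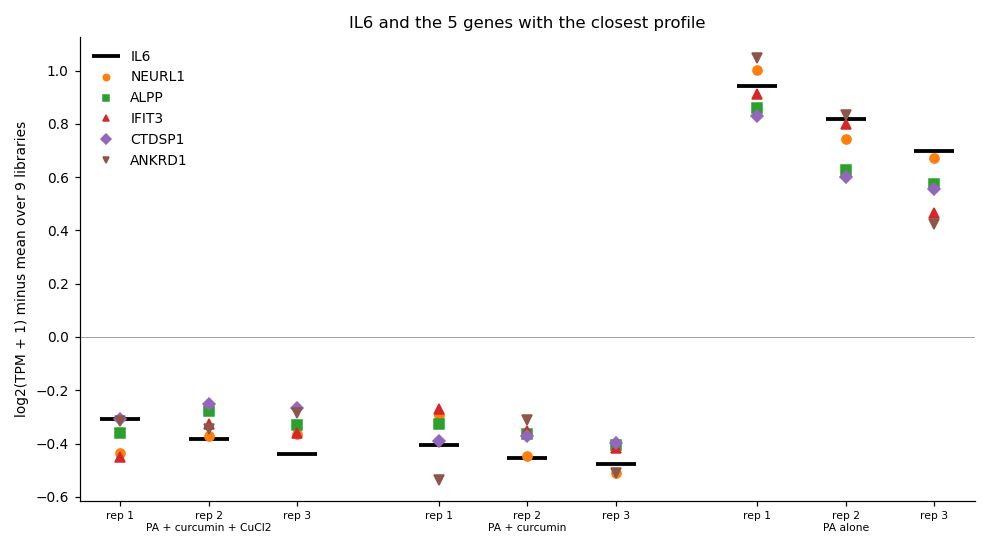
Log2(TPM + 1) minus the gene's mean over the 9 libraries (y axis) for IL6 (black bars) and its 5 closest genes (symbols), by library (x axis). All 6 genes lie below 0 in the 6 curcumin libraries and above 0 in the 3 with palmitic acid alone, where ANKRD1 runs from 0.42 to 1.05.

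The wider pathway was described with 185 genes in 6 lists that did not include the 10, of which 100 passed the filter. At the adjusted threshold, 1 of the 100 was called higher and 2 lower with curcumin, against 0.759% and 1.21% of all tested genes. With curcumin and CuCl2, 0 were called higher and 2 lower, against 0.543% and 0.900%. At an unadjusted p under 0.05 there were 22 of 100 with curcumin and CuCl2 and 20 with curcumin, against 13.5% and 14.0% of all tested genes. Libraries were apart from palmitic acid alone and lower for 19 and 17 of 100, against 10.3% and 8.61% of all tested genes, and apart and higher for 4 and 5, against 8.67% and 8.15%. Of the 19 and 17, 10 and 7 were in the list of regulators of cytokine transcription and mRNA decay. The lists were chosen with earlier results of these data known, so their counts here and below describe them and test nothing. CCL5, which encodes a chemokine for T cells and monocytes, had 12.4, 12.9 and 15.7 TPM with curcumin and CuCl2, 18.1, 12.0 and 15.8 TPM with curcumin, and 25.5, 25.9 and 26.02 TPM with palmitic acid alone. Both curcumin groups lay below palmitic acid alone. CCL5 fell by 0.88 on the log2 scale with curcumin and CuCl2 (SE 0.14, limma adjusted p = 0.0212) and by 0.73 with curcumin (SE 0.14, limma adjusted p = 0.0389).

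JUND, which encodes an AP-1 subunit, had 129, 141 and 122 TPM with curcumin and CuCl2, 139.5, 119 and 132 TPM with curcumin, and 244, 201 and 225 TPM with palmitic acid alone. It fell by 0.77 in each comparison (SE 0.09, limma adjusted p = 0.00594 with curcumin and CuCl2 and 0.00481 with curcumin), and this fall was known from earlier results. TNFRSF1A, the gene of the main TNF receptor, had 88.4, 89.0 and 94.1 TPM with curcumin and CuCl2, 96.2, 91.7 and 92.4 TPM with curcumin, and 78.0, 73.3 and 69.0 TPM with palmitic acid alone. It rose by 0.35 with curcumin (SE 0.07, limma adjusted p = 0.0388), and its estimate of 0.30 with curcumin and CuCl2 did not pass (limma adjusted p = 0.0717). The call for CCL5 was lost in 11 of 17 alternative analyses with curcumin and in 6 with curcumin and CuCl2, and that for TNFRSF1A in 10. The call for JUND was kept in all 17 in both comparisons.

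**Figure D5:**
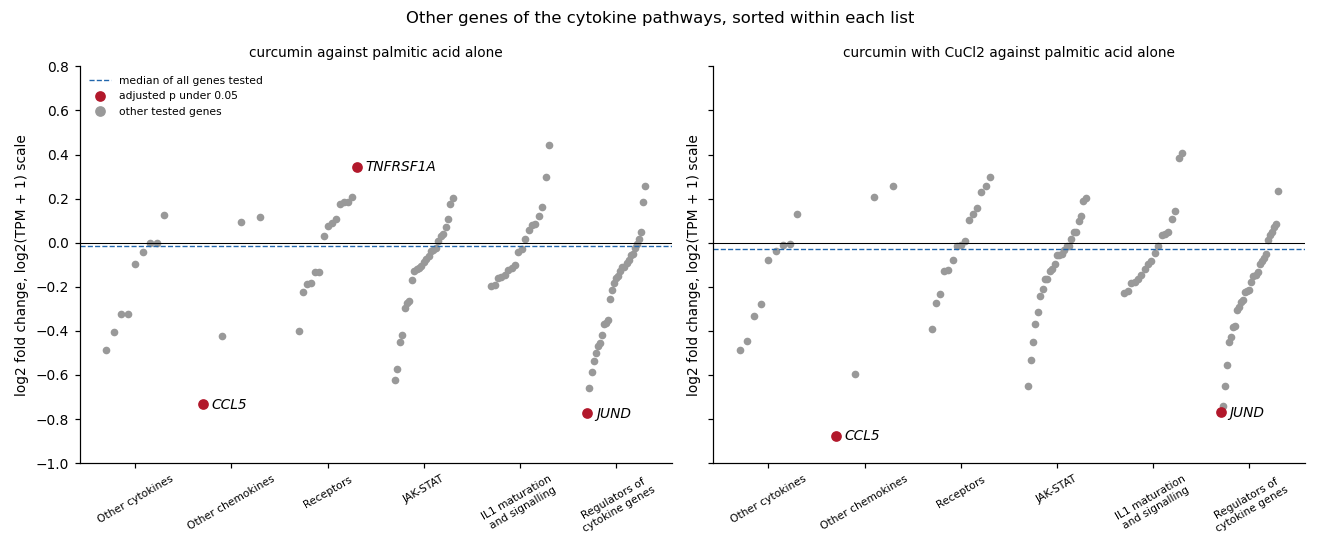
Log2 fold changes on the log2(TPM + 1) scale (y axis) of the 100 tested genes of the 6 lists, sorted within each list, for curcumin (left) and for curcumin with CuCl2 (right), both against palmitic acid alone. Red points are past the adjusted threshold of 0.05, namely CCL5, TNFRSF1A and JUND at left and CCL5 and JUND at right; the dashed line is the median of all genes tested.

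Among other cytokine genes, 9 of 44 passed the filter and none passed the adjusted threshold. Several were more abundant than IL6. MIF, the macrophage migration inhibitory factor gene, averaged 2012 ± 75.9, 2015 ± 272 and 1860 ± 366 TPM with curcumin and CuCl2, curcumin and palmitic acid alone. GDF15, a stress-induced cytokine gene, averaged 375 ± 15.8, 365 ± 44.9 and 457.5 ± 60.9 TPM, and IL18 319 ± 25.7, 322 ± 16.5 and 321 ± 14.8 TPM (SD, n = 3 each). The 95% interval of the IL18 log2 fold change with curcumin was -0.16 to 0.17. TNFSF9, the gene of a costimulatory ligand, had an estimate of -0.33 with curcumin and CuCl2 and of -0.32 with curcumin (limma adjusted p = 0.0792 and 0.0783). Of 27 other chemokine genes only 4 passed the filter, CCL5, CXCL16, CCL26 and CCL20.

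Receptors for the measured ligands were present only in part. Of 32 receptor genes 15 passed the filter. TNFRSF1A alone passed the adjusted threshold, and only with curcumin. IL6R, the IL6 receptor gene, averaged 2.92 ± 0.43 TPM with curcumin and CuCl2, 3.52 ± 0.56 TPM with curcumin and 2.997 ± 0.73 TPM with palmitic acid alone, a level under that of IL6ST, which encodes gp130, at 12.3 ± 0.79, 12.9 ± 3.27 and 15.1 ± 4.79 TPM. LIFR averaged 11.1 ± 1.07, 11.4 ± 2.43 and 10.0 ± 2.65 TPM (SD, n = 3 each). IL1RAP, the accessory chain of the IL-1 receptor, had a mean of 10.0 TPM over the 9 libraries, while IL1R1, its signalling partner, had 0.217 TPM and the antagonist gene IL1RN 0.121 TPM. CXCR1 was listed at 0 in all 9 libraries, and CXCR2 and CCR2 were at or near 0, with means of 0.0022 and 0.0056 TPM.

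Signalling and control genes gave few calls. Of 28 JAK-STAT genes, 25 were tested and none passed the adjusted threshold. STAT3, the main transducer of IL6, had 31.9, 37.9 and 36.6 TPM with curcumin and CuCl2, 32.6, 45.8 and 31.8 TPM with curcumin, and 62.9, 53.5 and 34.2 TPM with palmitic acid alone. Replicate 3 of palmitic acid alone lay within the curcumin range, and the estimates of -0.45 and -0.42 (SE 0.21) did not pass. SOCS3, the feedback inhibitor that STAT3 induces, averaged 14.3 ± 1.26, 15.2 ± 0.93 and 13.1 ± 1.41 TPM (SD, n = 3 each), with log2 fold changes of 0.12 and 0.20 that did not pass. Of 25 genes of IL-1 maturation and signalling 18 were tested, and none passed the adjusted threshold.

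All 29 regulators of cytokine transcription and mRNA decay were tested, and JUND alone passed the adjusted threshold. Their median log2 fold change was -0.22 with curcumin and CuCl2 and -0.16 with curcumin, and 23 and 25 of the 29 estimates were below 0, where 56.1% and 53.5% of all tested genes were. Libraries were apart from palmitic acid alone and lower for 10 and 7 of the 29, against 10.3% and 8.61% of all tested genes. They were apart and higher for 0 and 1, against 8.67% and 8.15%. At an unadjusted limma p under 0.05 there were 9 and 8, against 13.5% and 14.0%. CEBPB, a C/EBP factor gene, averaged 109 ± 12.4, 106 ± 15.9 and 141 ± 6.06 TPM (SD, n = 3 each) and did not pass (limma adjusted p = 0.172 and 0.125). ZFP36, whose product speeds the decay of cytokine transcripts, averaged 9.78 ± 0.96, 9.35 ± 1.15 and 12.5 ± 3.62 TPM. ZC3H12A, which encodes the nuclease Regnase-1, averaged 8.35 ± 0.88, 9.86 ± 0.36 and 8.18 ± 1.62 TPM, and NFKBIZ, a coactivator gene of IL6, 2.37 ± 0.72, 2.13 ± 0.59 and 3.18 ± 1.43 TPM. None of these 3 passed.

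Replicate 3 of palmitic acid alone stood apart in several of these genes and had the lowest mitochondrial share of the 9 libraries, 10.1%. Without it the calls in the 6 lists numbered 10 of 100 with curcumin and CuCl2 and 9 of 100 with curcumin, where 4.13% and 4.71% of all tested genes were called. All 10 were lower, among them STAT2, STAT3, ATF3, KLF6 and ZFP36L1, and with curcumin 8 were lower. IL6 fell by 1.26 with curcumin and CuCl2 and by 1.32 with curcumin in that fit. With mitochondrial share as a covariate, IL6 fell by 1.18 with curcumin and CuCl2 and by 1.24 with curcumin, and 17 and 21 of the 100 list genes were past the threshold, where 10.7% and 11.2% of all tested genes were.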

How the data were processed

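The values analysed are the TPM that the authors deposited, as 1 table with 2 decimals and 1 column per library. The submitters' processing notes name HISAT2 2.1.0, RSEM 1.3.3 and GRCh38.p13, without roles. RNA was made into libraries with a stranded kit for mRNA, per the labels' protocols. Columns summed to 999999 to 1000001. TPM keeps no depth, so the reads behind a value are unknown and no count model or counting interval was used.

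Values were taken as log2(TPM + 1), and genes averaging under 1 TPM across libraries were dropped, which left 13443 genes with 99.7% of the TPM. All 9 libraries entered 1 limma 3.58.1 fit (R 4.3.3) with a mean per group and a variance trend. Tests were two-sided, with Benjamini-Hochberg adjustment over all genes kept and a threshold of 0.05. The fit was run on simulated data with independent normal noise of the spread it had itself estimated. That run cannot show how the fit behaves where a library deviates. Replicate numbers came from the sample titles.

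The 10 genes, the 6 pathway lists, the tests and the alternatives were chosen with earlier results of these data known. The text names all 10 genes, every list gene past the threshold, 15 partner genes fixed by name, the 5 profiles closest to IL6 and some further list genes chosen after their values were seen. Promoters are from RefSeq (GRCh38.p14) and coordinates and coding sequences from GENCODE release 29. Protein sequences were not used here. Figures were drawn with matplotlib 3.10.9.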

Additional observations from a re-analysis of the deposited data

How the results depend on the processing

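Over 17 alternatives, IL6 kept its direction and its side of the threshold in every comparison (against palmitic acid alone, -1.26 to -1.14 with curcumin and CuCl2 and -1.32 to -1.20 with curcumin, both ranges set by leaving out a library; 0.035 to 0.10 between the curcumin groups). IL32 kept its call in all 17 with curcumin and CuCl2 (-1.24 to -1.04) and in 16 of 17 with curcumin (-1.35 to -1.09). With only the 2 groups in the curcumin fit, IL32 missed the threshold. IL6 and IL32 were chosen by these same differences from palmitic acid alone, so their kept calls describe the set and test nothing. The other 6 tested genes kept their negative sign against palmitic acid alone and never passed, though CXCL8 and CXCL3 were tested in only 16 of the 17. Counts of genes past the threshold moved far more. With curcumin against palmitic acid alone (264), there were 104 with no filter, 35 with only the 2 groups compared, 1505 with mitochondrial share as a covariate and 55 to 633 with a library left out, the lowest without replicate 3 of curcumin and the highest without replicate 3 of palmitic acid alone. With curcumin and CuCl2 against palmitic acid alone (194), there were 114, 65, 1436 and 49 to 555, the lowest without replicate 1 of curcumin with CuCl2 and the highest without replicate 3 of palmitic acid alone. Between the curcumin groups (0), there was 1 with a pseudocount of 5, 3 with no filter, 3 with only the 2 groups compared and 0 to 4 with a library left out. In the 6 pathway lists, curcumin (3) gave 1 with no filter, 6 with median-of-ratios scaling, 1 with only the 2 groups compared, 1 with the replicate block, 21 with the covariate and 1 to 9 with a library left out. Curcumin with CuCl2 (2) gave 1 with no filter, 5 with median-of-ratios scaling, 17 with the covariate and 1 to 10 with a library left out. For the replicate block, deviations of same-numbered libraries had a median correlation across genes of 0.042 (-0.269 to 0.246 over 9 pairs). For libraries of different numbers it was -0.022 (-0.382 to 0.262 over 18 pairs). These values give no sign that the numbers pair the libraries, but with 3 libraries a group they cannot exclude it. Over all genes the block gave 177 with curcumin and 147 with curcumin and CuCl2 against palmitic acid alone, and 0 between the curcumin groups. The cause of these shifts was not tested. Low genes such as IL1B, CXCL1 and CXCL8 are limited by an unknown depth.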
